A study of Rattus norvegicus with 6 samples.

Results

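The genes described here are the stathmins Stmn1, Stmn2, Stmn3 and Stmn4, the microtubule-associated protein (MAP) genes Map2, Map1b and Mapt, the doublecortin genes Dcx and Dclk1, and the growth cone gene Gap43. They were chosen by symbol, and all 10 were found among the 37183 symbols of the deposited expression table. The study exposed primary rat hippocampal cultures to 200 nM insulin and sequenced total RNA after depletion of ribosomal RNA. Its groups were neurons at 0 h (the control), neurons after 6 h and after 12 h of insulin, and astrocytes at the same 3 points, with 1 library per group. The control is called saline in the titles and untreated in the characteristics. All cultures had their medium changed 4 h before treatment, neurons to serum-free medium with 1% B27 lacking insulin and astrocytes to medium with 2% FBS and 5 mM glucose. The insulin cultures had therefore spent longer in the new medium than the control, and insulin and time since the change cannot be told apart. No strain, age or number of animals is given in the labels used here.

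Stathmins bind free tubulin dimers and promote microtubule disassembly, and phosphorylation turns them off. Structural MAPs do the reverse, binding along the microtubule wall and stabilising it, with Map2 protein mainly in dendrites and tau, the product of Mapt, mainly in axons. Doublecortin (Dcx) stabilises microtubules in migrating and newly formed neurons, and GAP-43 is a membrane protein of the growth cone, the motile tip of an extending axon. Several of these genes are commonly read as signs of a neuron building its processes.

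Values are FPKM (fragments per kilobase of transcript, scaled to sequencing depth), which the authors deposited as logarithms after giving all libraries the same distribution of values. Differences are on the log2 scale. Because every group is a single library, no value has an error, no test was possible, and no difference can be set against the spread between cultures. Genes with a value on both sides of a comparison, and 1 FPKM or more on at least 1 side, were compared, and a gene was called higher or lower at a difference of 1, which is 2-fold. The libraries had between 22891 and 25528 symbols with a value, and read depth is unknown. The insulin libraries of each cell type had more symbols with a value than their control. The median difference of all genes compared was 0.14 at 6 h and 0.14 at 12 h in the neuron-labelled cultures, and 0.09 and 0.10 in the astrocyte-labelled ones, so differences of the 10 genes are given beside it.

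The labels were checked against marker genes. In the neuron-labelled control, 9 of 15 neuron markers reached 1 FPKM, and the 15 summed to 103.5 FPKM, against 6.63 FPKM in the astrocyte-labelled control. The GABAergic markers Gad1 and Slc32a1 were at 5.78 and 21.7 FPKM there, whereas the glutamatergic markers Slc17a7 and Slc17a6 were at or below 0.004 FPKM in the 3 neuron-labelled libraries. The neuron-labelled control also carried astrocyte markers, which summed to 394 FPKM, and oligodendrocyte and precursor markers, which summed to 154 FPKM. The astrocyte-labelled control had 56.2 FPKM of astrocyte markers and 519 FPKM of smooth muscle, pericyte and fibroblast markers, against 4.59 FPKM of the last list in the neuron-labelled control. The sum of the astrocyte markers was thus higher in the neuron-labelled than in the astrocyte-labelled control. Of 10 compared, 7 were at least 2-fold higher in the neuron-labelled control and 1 lower, where 21.9% and 18.7% of all genes compared were. The lower one was Fgfr3, at 3.70 FPKM in the neuron-labelled and 22.1 FPKM in the astrocyte-labelled control. Whether these marker levels come from the makeup of the cultures or from the labels cannot be told apart here, and the libraries are called by their labels throughout. In such bulk samples, fewer cells of a type and less RNA per cell cannot be told apart.

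All 10 genes were above 1 FPKM in all 3 neuron-labelled libraries, and 3 of them, Stmn1, Stmn2 and Map1b, were above it in all 3 astrocyte-labelled libraries. Promoters of 6 of the 10 genes, Stmn1, Stmn3, Map2, Map1b, Dcx and Dclk1, matched by symbol in the RefSeq promoter table of rat assembly GRCr8. Stmn2, Stmn4, Mapt and Gap43 had no entry. Shown here are the 250 bases before the annotated start of 2 genes found in both cultures, Stmn1 (GRCr8, chr5:151964929-151965178, plus strand) and Map1b (chr2:32644472-32644721, minus strand). Beside them stand 2 genes that were almost confined to the neuron-labelled libraries, Stmn3 (chr3:188802495-188802744, minus strand) and Dcx (chrX:112304162-112304411, minus strand). Each is written 5′ to 3′ on the gene's own strand, and capitals mark matches, on either strand, to 5 motifs. These were the canonical E-box CACGTG, the proneural type of E-box written as CAGATG, the TATA-like motif spelled TATAAA, the GC box with the letters GGGCGG and finally the promoter motif known as CCAAT.
Stmn1: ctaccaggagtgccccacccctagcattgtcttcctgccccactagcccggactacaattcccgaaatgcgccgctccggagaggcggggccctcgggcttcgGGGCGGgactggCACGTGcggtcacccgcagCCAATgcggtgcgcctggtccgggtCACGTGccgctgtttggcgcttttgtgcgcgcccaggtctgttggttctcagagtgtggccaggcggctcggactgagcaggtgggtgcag
Map1b: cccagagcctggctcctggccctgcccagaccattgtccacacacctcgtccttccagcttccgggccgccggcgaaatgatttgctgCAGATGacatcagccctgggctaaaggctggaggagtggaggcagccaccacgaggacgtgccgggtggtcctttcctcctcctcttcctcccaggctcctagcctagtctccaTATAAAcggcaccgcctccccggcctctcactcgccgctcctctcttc
Stmn3: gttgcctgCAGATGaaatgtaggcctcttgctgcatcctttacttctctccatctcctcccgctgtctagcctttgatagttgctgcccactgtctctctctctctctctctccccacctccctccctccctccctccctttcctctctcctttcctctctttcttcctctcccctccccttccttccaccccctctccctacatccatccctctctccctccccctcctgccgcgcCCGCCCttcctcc
Dcx: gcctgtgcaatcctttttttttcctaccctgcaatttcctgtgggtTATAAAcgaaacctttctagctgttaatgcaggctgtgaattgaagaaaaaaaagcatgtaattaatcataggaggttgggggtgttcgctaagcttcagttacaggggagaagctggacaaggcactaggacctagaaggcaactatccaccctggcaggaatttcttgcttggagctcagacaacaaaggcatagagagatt

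The Stmn1 window held 2 CACGTG matches, a motif present in 5.59% of all 33465 promoter windows of this length, 1 GGGCGG match (30.5% of windows) and 1 CCAAT match (34.0%). The Map1b window held 1 TATAAA match (12.9% of windows) and 1 CAGATG match (14.0%). The Stmn3 window, a long run of pyrimidines with few CpG pairs, held 1 CAGATG and 1 GGGCGG match, and the Dcx window held 1 TATAAA match. No pair of motifs overlapped within these windows. A match is a string of letters and not a shown binding site.

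The windows differed more plainly in CpG dinucleotides. Stmn1 had 22, Map1b 13 and Dclk1 11, whereas Stmn3 had 4, Dcx 2 and Map2 1. The first 3 of these were the 3 with the smallest differences between the neuron-labelled and astrocyte-labelled controls among the 6, as given below. Over all genes compared between the controls that had a promoter entry, 20.5% of 3333 genes with 11 or more CpG pairs were called higher in the neuron-labelled control, against 31.4% of 309 genes with 4 or fewer. The share called lower was 17.1% of the first set and 28.5% of the second. These limits were set after the windows of the members had been seen, and the 6 windows are a description only.

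The first comparison asked where the genes were expressed, between the neuron-labelled and astrocyte-labelled controls. Stmn4 was blank in the astrocyte-labelled control, which left 9 genes, and 7 of these were at least 2-fold higher in the neuron-labelled control while 0 were lower. Over all 7146 genes compared, 21.9% were higher and 18.7% lower. The median of the 9 was 4.70, against 0.10 for all genes. Over the 3 libraries of each culture type, all 8 members without a blank had every neuron-labelled value above every astrocyte-labelled one, the uncalled Stmn2 and Map1b included. The same held for 41.6% of 7754 genes without a blank, and 30.6% lay wholly below, so such separation was common and is a description only.

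Stmn1, the founding stathmin, which is also made by dividing cells, was the most abundant of the 10 in every library. It was at 49.1, 50.3 and 47.6 FPKM in the neuron-labelled control, 6 h and 12 h libraries, and at 9.75, 8.51 and 9.13 FPKM in the astrocyte-labelled control, 6 h and 12 h libraries. The difference between the controls was 2.33, or 5.04-fold. Of 8 proliferation markers compared between the controls, 0 were higher in the neuron-labelled control and 7 lower, where 21.9% and 18.7% of all genes were. Mki67 was at 0.741 FPKM in the neuron-labelled control and 5.58 FPKM in the astrocyte-labelled control. What dividing cells contributed to Stmn1 was not tested. RefSeq lists 4 stathmin pseudogenes (symbols Stmnl-ps1 to Stmnl-ps4), 0 of which have a row in the table, so reads shared with such copies would be uncertain.

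Stmn3, a neuronal stathmin (SCLIP) held on membranes by a lipid anchor, came next in the neuron-labelled libraries. It was at 14.3, 12.9 and 11.2 FPKM in the neuron-labelled control, 6 h and 12 h libraries, and at 0.0038, 0.016 and 0.0069 FPKM in the astrocyte-labelled ones. Stmn4, the neuronal stathmin RB3, was at 5.24, 5.29 and 4.85 FPKM in the neuron-labelled libraries. In the astrocyte-labelled libraries it was blank in the control and at 12 h, and at 0.0016 FPKM at 6 h. The control difference of Stmn3 was 11.88, with 99.9% of all genes compared below it, but its size rests on a value near 0 and is uncertain.

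Stmn2 (SCG10), the stathmin of growing axons, did not follow its neuronal relatives. It was at 3.41, 3.11 and 2.61 FPKM in the neuron-labelled control, 6 h and 12 h libraries, and at 2.43, 1.97 and 2.13 FPKM in the astrocyte-labelled ones. The control difference was 0.49, or 1.40-fold, which was not called, and the lowest neuron-labelled value stood just above the highest astrocyte-labelled one. Within the stathmin family, Stmn3 was 4.19 times Stmn2 in the neuron-labelled control and 0.0016 times Stmn2 in the astrocyte-labelled control. Stmn2 made up 4.73% of the summed stathmin FPKM of the neuron-labelled control and 20.0% of that of the astrocyte-labelled control, where the sums were 72.0 and 12.2 FPKM. Other neuron markers with more than 1 FPKM in the astrocyte-labelled control were Uchl1, Eno2 and Nefl, at 3.45, 1.32 and 1.1 FPKM, while Gad1 was at 0.00087 FPKM there and Slc32a1 was blank. Which cells carried the Stmn2 RNA was not tested.

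Map1b, an early MAP of growing axons, was the other gene with a small difference. It was at 6.63, 7.42 and 7.28 FPKM in the neuron-labelled control, 6 h and 12 h libraries and at 3.44, 2.47 and 2.86 FPKM in the astrocyte-labelled ones. The control difference of 0.95, or 1.93-fold, fell just short of a call. Map2, the dendritic MAP, was at 6.61, 7.77 and 6.44 FPKM in the neuron-labelled libraries and at 0.072, 0.088 and 0.086 FPKM in the astrocyte-labelled ones. Mapt, which encodes tau, was at 4.86, 4.84 and 4.55 FPKM in the neuron-labelled libraries and at 0.035, 0.035 and 0.053 FPKM in the astrocyte-labelled ones. The control differences of Map2 and Mapt were 6.52 and 7.12.

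Dcx was at 5.08, 6.08 and 6.56 FPKM in the neuron-labelled control, 6 h and 12 h libraries. In the astrocyte-labelled libraries it was at 0.0021 FPKM in the control, 0.0046 FPKM at 6 h and blank at 12 h. Its relative Dclk1, which joins a doublecortin domain to a kinase, was less restricted. Dclk1 was at 2.21, 2.53 and 2.55 FPKM in the neuron-labelled libraries and at 0.263, 0.304 and 0.308 FPKM in the astrocyte-labelled ones, with a control difference of 3.07. Gap43 was the least abundant of the 10 in every neuron-labelled library, at 1.5, 1.77 and 1.73 FPKM, and was at 0.058, 0.038 and 0.096 FPKM in the astrocyte-labelled ones, with a control difference of 4.70. The Dcx difference was 11.24, again against a value near 0.

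**Figure D1:**
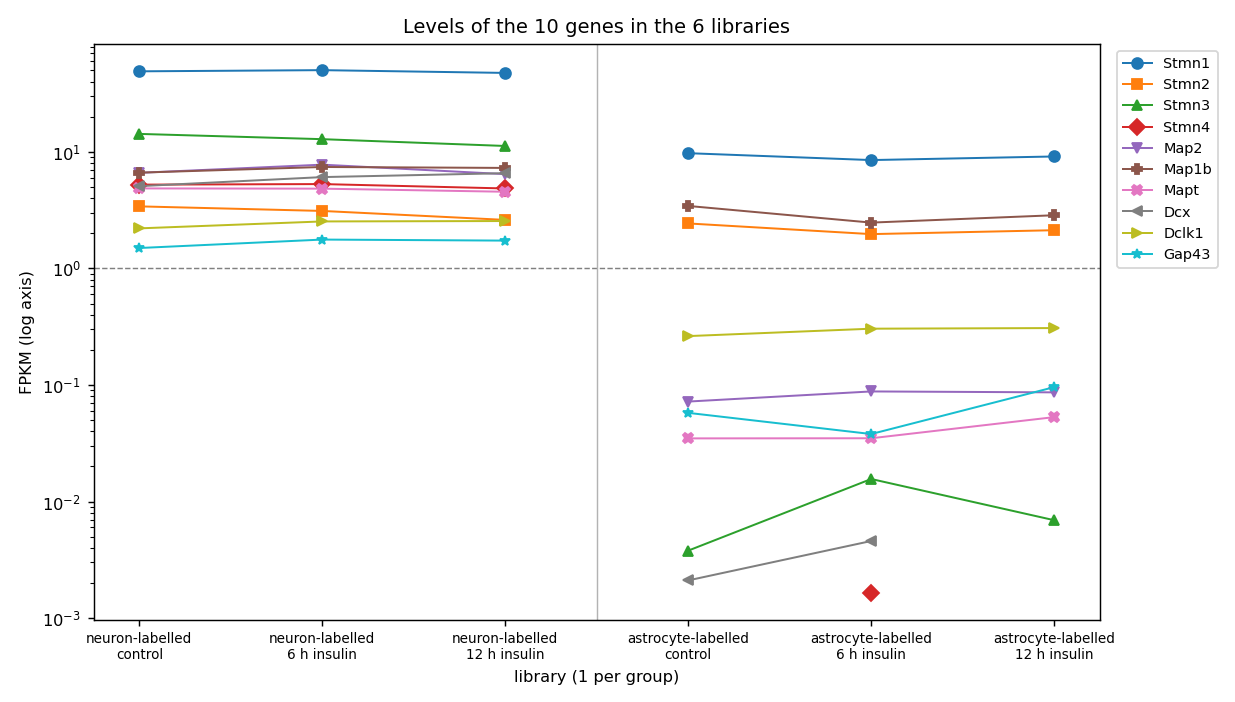
FPKM on a log axis of each of the 10 genes in the 6 libraries, 1 point per library, with lines joining the libraries of 1 culture type; the dashed line is 1 FPKM and a missing point is a blank cell. All 10 genes lie above 1 FPKM in the neuron-labelled libraries, and Stmn1, Map1b and Stmn2 are the 3 that do so in the astrocyte-labelled ones.

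By level in the neuron-labelled control the order was Stmn1, Stmn3, Map1b, Map2, Stmn4, Dcx, Mapt, Stmn2, Dclk1 and Gap43. Map1b and Map2 lay side by side there, at 6.63 and 6.61 FPKM, and Stmn4, Dcx and Mapt lay between 4.86 and 5.24 FPKM. With no replicates it is unknown which neighbours differ beyond error. The levels are per length, but the transcript model behind each length is not given in the sources used here, and Map2, Mapt and Dclk1 have transcripts of very different lengths. Among all symbols of the neuron-labelled control, Stmn1 ranked 261 from the top, Stmn3 ranked 753 and Gap43 ranked 4695.

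**Figure D2:**
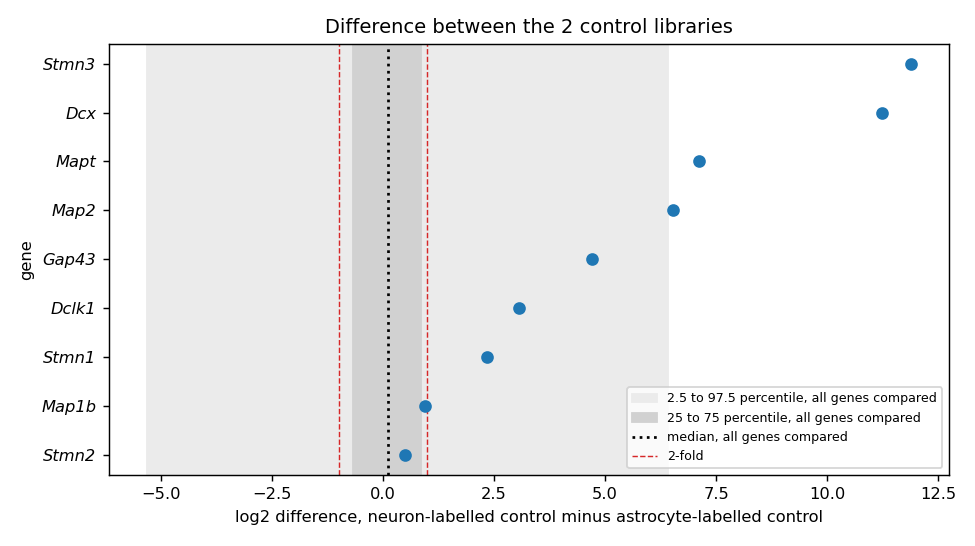
Log2 difference of the neuron-labelled control minus the astrocyte-labelled control (x axis) for the 9 genes with a value in both (y axis), over the ranges of all genes compared. Stmn3 and Dcx stand above 11, Map1b and Stmn2 lie inside the 2-fold lines at 0.95 and 0.49, and all 9 are above the all-gene median of 0.10.

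The second comparison asked what the genes did in the neuron-labelled cultures under insulin. None of the 10 changed by 2-fold at either time. At 6 h, 0 of 10 were called higher and 0 lower, where 1.60% and 1.29% of 6610 genes compared were. At 12 h, 0 of 10 were called higher and 0 lower, where 2.39% and 1.45% of 6641 genes were. With so small a share over all genes, 0 of 10 is near the background and is no result about these genes. At a size of 1.5-fold, 0 of 10 were again past the limit in either direction, a size passed at 6 h by 8.28% of genes upward and 2.80% downward, and at 12 h by 10.7% upward and 4.17% downward. The largest difference of any of the 10 was 0.26 at 6 h, for Dcx, and -0.39 at 12 h, for Stmn2. The 2 times share the control library.

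The genes spread on both sides of the all-gene median, and Dcx, Dclk1 and Gap43 were above that median at both times. Of 12 other growth cone and neurite outgrowth genes compared, 3 were above it at 6 h and 4 at 12 h. Dcx, at 6.08 FPKM at 6 h and 6.56 FPKM at 12 h against 5.08 FPKM in the control, differed by 0.26 and 0.37, and 74.3% of the genes compared had a lower difference at 12 h. Dclk1 differed by 0.20 and 0.21, and Gap43 by 0.24 and 0.21, with 57.4% and 57.7% of genes below them at 12 h. These 3 genes were lowest in the control among the 3 neuron-labelled libraries, and their differences lay inside the middle 50% of all genes. Of all genes compared, 68.1% were above the control at 6 h and 66.1% at 12 h, so lying above it was common.

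The 4 stathmins and Mapt were below the all-gene median at both times. Stmn2, with values of 3.11 FPKM at 6 h and 2.61 FPKM at 12 h against 3.41 FPKM in the control, differed by -0.13 and -0.39, with 18.0% and 8.40% of all genes lower. Stmn3, with 12.9 and 11.2 FPKM against 14.3 FPKM, differed by -0.15 and -0.34, with 16.3% and 9.74% of genes lower. Both genes were highest in the control and lowest at 12 h, an order that was not counted over all genes. Stmn1 differed by 0.03 and -0.05, Stmn4 by 0.02 and -0.11 and Mapt by -0.01 and -0.10, so these 3 stayed within 0.11 of the control on the log2 scale. Stmn1 and Stmn4 at 6 h were above 0 as deposited and below it when differences were centred on the median of all genes. Centred instead on the median of the neuron markers described below, 6 genes turned from below 0 to above it at 12 h, namely the 4 stathmins, Map2 and Mapt, with Stmn2 at 0.14 and Stmn3 at 0.18, and Mapt did so at 6 h as well.

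Map2 and Map1b lay on both sides, above the all-gene median at 6 h but below it at 12 h. Map2 differed by 0.23 and -0.04, and had the largest drop between the insulin libraries, -0.27. Map1b differed by 0.16 and 0.13, the second of which lies 0.0068 below the all-gene median and turns negative when centred on it.

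**Figure D3:**
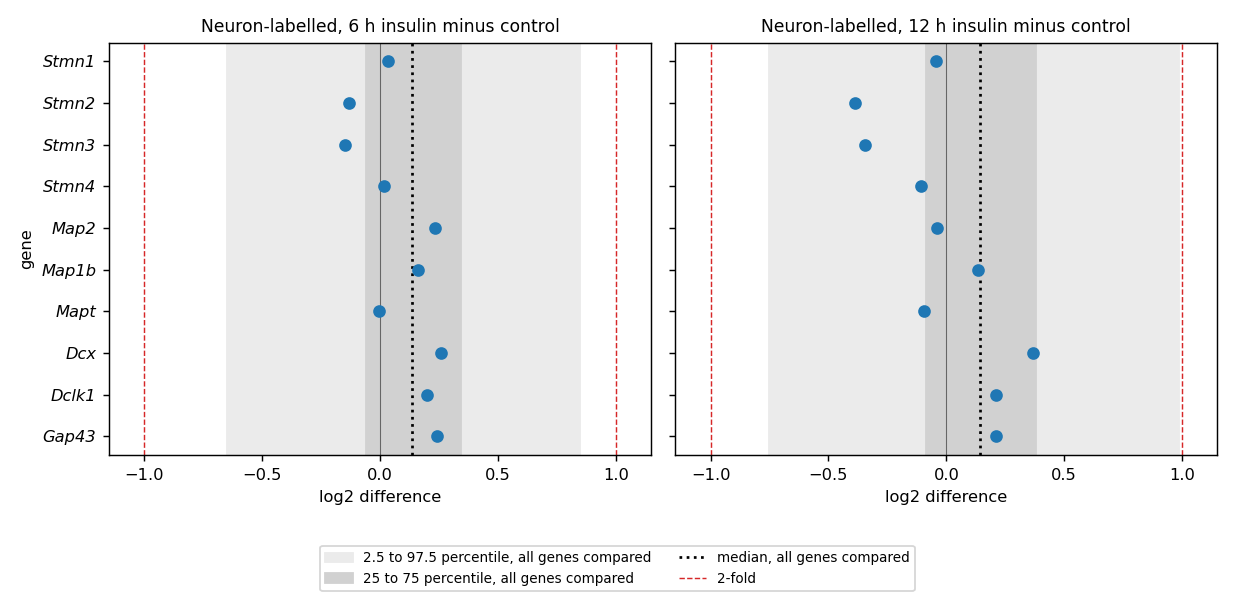
Log2 differences of the 10 genes (rows) in the neuron-labelled cultures, at 6 h (left) and 12 h (right) of insulin minus control, over the middle 50% and 95% of all genes compared; dashed lines mark 2-fold. All points lie inside the 95% range, from -0.15 to 0.26 at 6 h and from -0.39 to 0.37 at 12 h.

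Between the insulin libraries, 12 h minus 6 h, 8 of the 10 were below 0 (and above it when centred on the neuron markers) and 2, Dcx and Dclk1, above it, with a median of -0.08 against -0.01 for all 6662 genes. Differences ran from -0.27 for Map2 to 0.11 for Dcx, and 0 were called higher and 0 lower, where 0.555% and 0.510% of all genes were. Within the set, Stmn1 made up 70.3% of the summed stathmin FPKM at 6 h and 71.8% at 12 h, against 68.2% in the control, and Stmn3 made up 18.0% and 17.0%, against 19.8% in the control. The ratio of Dcx to Stmn3 was 0.473 at 6 h and 0.584 at 12 h, against 0.356 in the control, while that of Map2 to Mapt was 1.61 and 1.42, against 1.36. Of the 10 genes, Dcx had the largest rise from the control at both times and Stmn3 the largest fall at 6 h. The ratio of Dcx to Stmn3 thus restates differences given above and is no separate result.

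Markers of the cells in these cultures moved at the same time. Of 9 neuron markers compared at 12 h, 8 were below 0, with a median of -0.53, against -0.04 for the 10 genes and 0.14 for all genes. Nefl, a neurofilament gene, was at 7.33 FPKM at 12 h against 14.7 FPKM in the control, a difference of -0.999 that fell just short of 2-fold. Gad1 was at 3.38 against 5.78 FPKM and Syp, a synaptic vesicle gene, at 2.72 against 4.48 FPKM. Tubb3, the neuronal tubulin of the list, was the exception among these 9 at 33.7 against 30.0 FPKM, and Uchl1 differed by only -0.10. The markers too low to be compared at 12 h lay on both sides. Rbfox3 was at 0.843 against 0.774 FPKM and Camk2a at 0.099 against 0.077 FPKM. Snap25 was at 0.725 against 0.862 FPKM and Syt1 at 0.581 against 0.650 FPKM, while Slc17a7 and Slc17a6 were near 0 in both. The summed level of the 15 neuron markers was 98.2 FPKM at 6 h and 83.6 FPKM at 12 h, against 103.5 FPKM in the control.

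Oligodendrocyte and precursor markers had a median of -0.12 over 7 genes at 12 h, 0 microglia and endothelial markers reached the floor, and the 1 proliferation marker that did, Pcna, differed by 0.50. Below the floor the proliferation markers lay on both sides at 12 h. Mki67 (0.590 against 0.741 FPKM), Top2a, Cdk1, Ccnb1 and Aurkb were under the control, and Mcm2 (0.654 against 0.452 FPKM), Mcm5, Ccna2 and Bub1 were over it. Astrocyte markers compared at 12 h had a median of -0.23 over 10, with Gfap at 134 against 96.7 FPKM and Glul at 77.7 against 106 FPKM. Tagln, a contractile gene, rose to 10.3 FPKM at 12 h, against 4.35 FPKM in the control. Other genes of its list were too low to be compared, with Acta2 at 0.015 against 0.0021 FPKM, Cnn1 at 0.028 against 0.0031 FPKM, Col1a1 at 0.025 against 0.011 FPKM and Fn1 at 0.222 against 0.058 FPKM. Myh11 went the other way, at 0.00016 against 0.00055 FPKM, and Rgs5 and Lum were blank in the control and at 12 h. The list summed to 6.84 FPKM at 6 h and 10.8 FPKM at 12 h, against 4.59 FPKM in the control. Tagln alone made up 6.53, 10.3 and 4.35 FPKM of these sums, so they mostly restate its value. Centred on the median of the neuron markers, the median of the 10 genes was 0.17 at 6 h and 0.48 at 12 h. Whether the number or the state of the neurons had a part in these values was not tested.

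The 6 lists of related genes were read in the same libraries, and 0 of their genes reached 2-fold at either time in the neuron-labelled cultures. Of 29 other MAPs, 15 were compared. Their median was 0.11 at 6 h and 0.18 at 12 h, and at 12 h 10 of the 15 exceeded the all-gene median, against 3 of the 10 genes described here. The same count was 4 of 12 growth cone and neurite outgrowth genes and 0 of 4 axon guidance and adhesion genes. It was 1 of 9 kinases and phosphatases, 3 of 14 motor and severing genes and 3 of 7 immature neuron genes. A low count was thus not particular to the 10 genes. The 3 most abundant other MAPs were Map1a, a MAP of mature neurons, at 11.5, 11.7 and 12.8 FPKM (control, 6 h and 12 h, an order kept in what follows), Camsap1, which binds microtubule minus ends, at 4.71, 5.70 and 5.94 FPKM, and Mapre1, the plus-end protein EB1, at 4.06, 5.15 and 5.21 FPKM.

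Of 24 symbols listed for growth cone and neurite outgrowth genes, 12 were compared, with medians of 0.00 and 0.07. Their 3 most abundant were Marcksl1, at 84.4, 89.8 and 105 FPKM, Marcks, which like GAP-43 binds calmodulin and the inner membrane, at 78.7, 113 and 107 FPKM, and Gprin1, a growth cone protein, at 36.2, 36.8 and 32.3 FPKM. The lowest difference of this list was that of Cplx1, a synaptic release gene named after its value was seen, at 1.82 FPKM at 12 h against 3.42 FPKM in the control, a difference of -0.91. Of 28 axon guidance and adhesion genes only 4 reached the floor, with medians of 0.04 and -0.04. These included L1cam, an adhesion molecule of axons, at 3.40, 3.51 and 3.20 FPKM, and the semaphorin co-receptors Plxna3, at 2.64, 2.25 and 2.28 FPKM, and Plxna1, at 1.93, 2.16 and 2.10 FPKM.

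Kinases and phosphatases acting on MAPs and stathmins had medians of 0.08 over 10 genes at 6 h and -0.06 over 9 at 12 h, of 23 listed. Cdk5r1, the p35 activator of the neuronal kinase Cdk5, was at 61.8, 54.3 and 50.8 FPKM, and its relative Cdk5r2 (p39) at 4.93, 3.50 and 2.99 FPKM, while Cdk5 itself was at 3.12, 2.73 and 3.0 FPKM. Motor and severing genes had medians of 0.06 over 13 genes and 0.08 over 14, of 23 listed. The most abundant were Dctn1, a dynactin subunit, at 7.59, 7.47 and 6.91 FPKM, Dync1h1, the dynein heavy chain, at 3.99, 4.88 and 4.92 FPKM, and the kinesin gene Kif5b at 3.81, 5.78 and 5.75 FPKM.

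Genes of immature neurons had medians of 0.10 and 0.14 over 7 of 18 listed. Tubb2b, a tubulin of developing neurons, was at 289, 327 and 318 FPKM, Nnat, neuronatin, at 284, 257 and 221 FPKM, and the transcription factor gene Sox4 at 48.4, 65.8 and 61.0 FPKM. Neurod1 and Nhlh2, named after their values were seen, were blank in all 6 libraries.

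**Figure D4:**
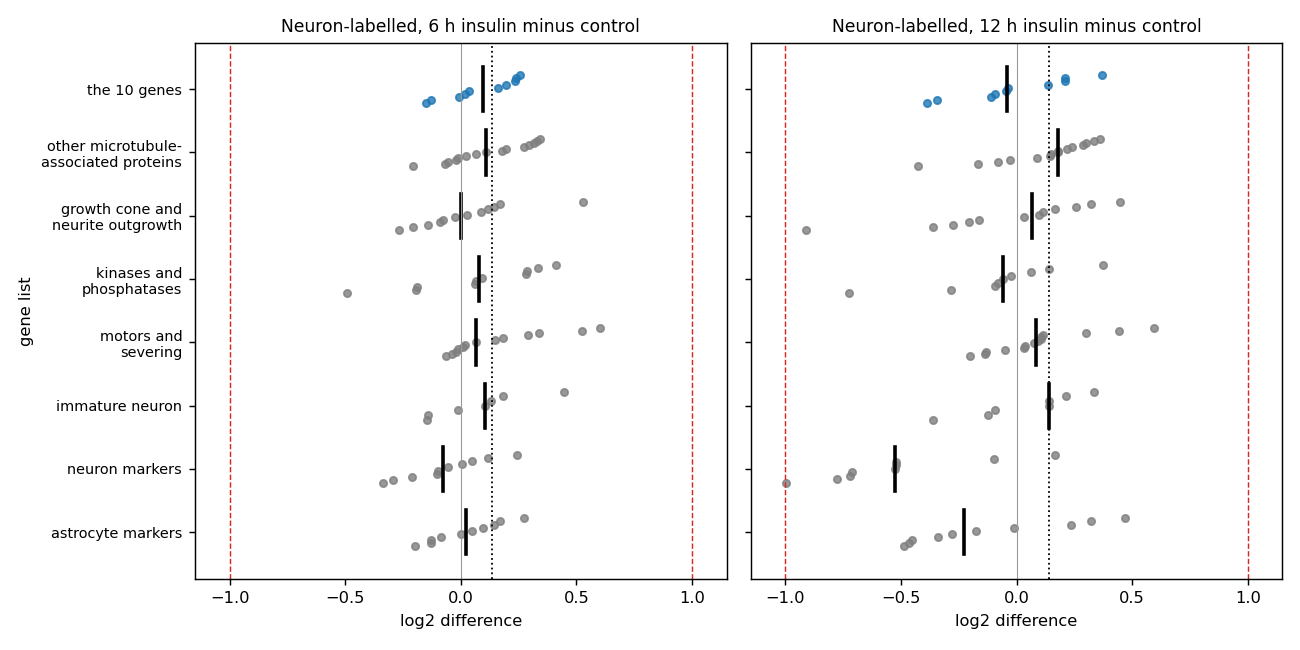
Log2 differences in the neuron-labelled cultures at 6 h (left) and 12 h (right) of insulin minus control for the 10 genes and 7 gene lists (rows), 1 point per gene compared, with a black bar at each list's median and a dotted line at the median of all genes. The medians at 12 h are -0.04 for the 10 genes, -0.53 for neuron markers and 0.18 for other MAPs.

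In the astrocyte-labelled cultures 3 of the 10 genes reached the floor, and these were below 0 at both times. Stmn1 differed by -0.20 at 6 h and -0.09 at 12 h, Stmn2 by -0.30 and -0.19, and Map1b by -0.47 and -0.27, against all-gene medians of 0.09 and 0.10. Of all 6206 genes compared at 6 h, 4.21% had a lower difference than Map1b. At 6 h, 0 of the 3 were called higher and 0 lower, where 1.05% and 0.886% of all genes were, and at 12 h 0 and 0, where 0.611% and 0.916% of 6221 genes were. Each of the 3 was highest in the control and lowest at 6 h, an order that was not counted over all genes. Proliferation markers, 8 of which were compared, had medians of -0.03 and 0.12 in the same libraries, with Mki67 at 3.73 FPKM at 6 h and 4.28 FPKM at 12 h, against 5.58 FPKM in the control. Their part in the Stmn1 values was not tested. Of the 3 neuron markers compared, Nefl rose to 2.30 FPKM at 6 h but was at 1.1 FPKM at 12 h, against 1.1 FPKM in the control. Eno2 differed by 0.35 and 0.14, and Uchl1 by -0.24 and -0.14. Gfap was at 12.4 and 8.45 FPKM, against 6.23 FPKM in the control, and Glul at 4.2 and 3.29 FPKM, against 5.32 FPKM. The immature neuron gene Tubb2b was at 12.4 and 10.6 FPKM, against 6.84 FPKM. Markers thus lay on both sides of their control values, and their part in the values of the 3 genes was not tested.

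The genes whose pattern over the 6 libraries was most like the mean of the members were Kiaa0408, Csdc2, Rab3a, Tspyl5 and S100b. Likeness was the root mean square difference of log2 values, each centred on its own mean, among 2526 genes that had no blank and reached 5 FPKM somewhere. It was taken against the 8 members with a value in all 6 libraries, which leaves out Stmn4 and Dcx, and ran from 0.14 to 0.22 for these 5 genes. The mean joins unlike members, with control differences from 0.49 for Stmn2 to 11.88 for Stmn3. Rab3a, a synaptic vesicle GTPase, was at 14.6, 14.8 and 12.4 FPKM in the neuron-labelled control, 6 h and 12 h libraries, and at 0.581, 0.751 and 0.542 FPKM in the astrocyte-labelled ones. S100b, from the list of astrocyte markers, was at 28.5, 26.0 and 22.5 FPKM in the neuron-labelled libraries and at 1.22, 1.24 and 0.944 FPKM in the astrocyte-labelled ones. This mean pattern was thus not particular to genes of neurons, and it does not describe each member. Over the 3 neuron-labelled libraries alone the mean of the members was nearly flat, and 2097 of the 2526 genes lay within 0.3 of it.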

How the data were processed

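The deposited table holds 1 value per gene symbol and library, FPKM as log2, after the authors' quantile normalisation of the 6 libraries. The name of the deposited table gives FPKM, log and quantile, and the quartiles of the 6 columns were equal to within 0.0000375. The base of the logarithm was inferred from Rn45s, the ribosomal RNA precursor, whose 8.679 kb length in RefSeq gives 113107 fragments in the depth unit of FPKM if the values are log2 but 7.5022e+06, more than the unit holds, if they are natural logs. The kit was stranded, per the labels' protocols. Genome build Rnor 6.0 and the tools bcl2fastq 2.17.1.14 and Partek 6.5 are named by the submitters' processing notes; aligner and annotation are not given in the sources here. Where a symbol had more than 1 row (2 symbols), that with the greater mean entered. Blanks were taken as missing.

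Differences were taken between log2 values with no pseudocount, with Python 3.11.15 and pandas 2.3.3, for genes with a value in both libraries and 1 FPKM or more in either, and a call was a difference of 1 or more in size. The difference and call steps were tested on simulated data. The members and the 12 other gene lists were chosen with earlier results of these data known. Named are all 10 genes, list members reaching 2-fold under insulin in the neuron-labelled cultures and otherwise the 3 most abundant of each list in the neuron-labelled control, any marker, and the 5 genes closest in pattern over the 6 libraries (those over the neuron-labelled libraries alone are not reported here); others are said to be named after their values were seen. Of the 213 list entries 8 were not found. Promoter windows came from RefSeq assembly GRCr8, a build other than that of the deposited values. Alternatives were other floors, log2(FPKM + 1), 3 ways of centring and a 1.5-fold size.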

Additional observations from a re-analysis of the deposited data

Results flagged for a closer look

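Map1b was above its control at both times in the neuron-labelled cultures (0.16 and 0.13) and below it at both times in the astrocyte-labelled ones (-0.47 and -0.27), so the neuron-labelled difference minus the astrocyte-labelled one was 0.637 at 6 h and 0.4 at 12 h on the log2 scale. With 1 library per group this contrast was not tested. Centred on the median of all genes, the 12 h value of the neuron-labelled cultures was -0.0068 and no longer pointed the other way.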

How the results depend on the processing

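With 1 library per group and unknown depth, these settings show only how values follow from arithmetic. In the neuron-labelled insulin comparisons, 0 of the genes left by each alternative run were called. The member median at 6 h was 0.086 with log2(FPKM + 1), -0.038 centred on all genes, -0.030 centred on genes at 5 FPKM or more and 0.17 centred on neuron markers. At 12 h it was -0.18, -0.19 and 0.48 under the same 3 centrings. For 12 h minus 6 h it was -0.10 with a floor of 5 FPKM, -0.075 with log2(FPKM + 1), -0.077 centred on all genes and 0.42 centred on neuron markers. In the astrocyte-labelled cultures, with no floor, 2 genes (Stmn3 and Dcx, both below 0.02 FPKM) were called higher at 6 h, and the medians were 0.0036 at 6 h and 0.25 at 12 h. With a floor of 5 FPKM, which left Stmn1 alone, the medians were -0.20 and -0.094. They were -0.21 and -0.13 with log2(FPKM + 1), -0.40 and -0.30 centred on all genes, and -0.39 and -0.28 centred on genes at 5 FPKM or more. Between the controls, a floor of 5 FPKM left 5 genes, 4 of them called higher, with a median of 6.52. That median was 2.22 with log2(FPKM + 1), 4.59 centred on all genes and 4.65 centred on genes at 5 FPKM or more. No paired analysis was possible because each group has 1 library. Of the single-gene values under the alternatives, 87 moved by less than 0.005 and 148 moved by more. None of the called values, all between the controls, turned, but values too small to be called did: centring on neuron markers turned 1 at 6 h, 6 at 12 h and 8 for 12 h minus 6 h, and centring on all genes turned 2 at 6 h and 1 at 12 h.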

Other observations

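The cytoskeletal genes outside the 10 that are given here were named after their values were seen. Tppp, a tubulin-bundling gene best known from oligodendrocytes, was at 3.03, 3.0 and 2.26 FPKM in the neuron-labelled control, 6 h and 12 h libraries, and below 0.05 FPKM in the astrocyte-labelled ones. Fscn1, the actin-bundling protein fascin of filopodia, was at 10.1, 8.79 and 7.90 FPKM in the neuron-labelled libraries and at 9.28, 14.6 and 14.6 FPKM in the astrocyte-labelled ones, where its differences from the control were 0.66 and 0.65. Macf1, which links actin to microtubules, was at 0.846, 1.06 and 1.04 FPKM in the neuron-labelled libraries and at 2.84, 1.68 and 2.26 FPKM in the astrocyte-labelled ones.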
